A study of Mus musculus with 11 samples.

Results

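Small nucleolar RNAs, Cajal body RNAs and U RNAs were followed in mouse embryonic fibroblasts (MEFs) after knockdown of p53 or of Pint, a long non-coding RNA that p53 induces. A probe set was a member when the platform annotation gave it 1 gene symbol only, and that symbol began with Snord, Snora, Scarna or Rnu followed by a digit. The rule took 61 of 34760 probe sets, for 59 of the 19937 genes named by a probe set of their own. Box C/D RNAs made up 32 probe sets (the Snord symbols and the U3 gene Rnu3a) and box H/ACA RNAs made up 22 probe sets for 20 genes. Cajal body RNAs made up 3 and other U RNAs made up 4. A further 29 probe sets carry several symbols with at least 1 of this kind and were left out of the members.

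All MEFs carried a p53 allele with a removable stop cassette, and Cre adenovirus was given to every group (multiplicity of infection 5, 24 h), so p53 had been restored in the controls too. The groups were Pint ASO with 3 arrays (a pool of 4 antisense oligonucleotides, ASO, against Pint), control ASO with 2 arrays, p53 siRNA with 3 arrays and control siRNA with 3 arrays. The ASOs were gapmers with a phosphorothioate backbone and methoxyethyl-modified ends, which direct cleavage of a paired RNA by RNase H. Doxorubicin, a DNA-damaging drug, was given at 150 nM for 12 h, starting 24 h after transfection, in every group. The labels do not say that the replicates were separate cultures, so p-values measure the spread between these arrays, which may be technical.

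Box C/D RNAs guide ribose methylation and box H/ACA RNAs guide the conversion of uridine to pseudouridine, mostly in ribosomal RNA, while Cajal body RNAs guide the same changes in spliceosomal RNA. In mammals most of them are cut out of introns of host genes, many of which encode ribosomal proteins or are non-coding genes named Snhg or Gas5. A few, among them U3 (Rnu3a) and U8 (Snord118), have promoters of their own and serve the cleavage of the ribosomal RNA precursor. U12 (Rnu12) is a spliceosomal RNA of the minor spliceosome. The arrays were hybridised with randomly primed product of total RNA, so the signal of an intronic member can include unspliced RNA of its host.

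Values are log2 intensities after RMA, and array medians lay between 7.31 and 7.38. Fibroblast markers were high throughout, with a mean over 10 genes of 11.7 in Pint ASO arrays, 12.1 in control ASO arrays, 12.5 in p53 siRNA arrays and 12.2 in control siRNA arrays. Of these 10 markers, 7 were called lower in Pint ASO than in control ASO arrays, beside 10.7% of all probe sets, and all 10 differences were negative. In p53 siRNA against control siRNA arrays 5 were called higher, beside 16.9% of all probe sets called in either direction. There 9 of the 10 differences were positive. The part of these markers in the differences below was not tested. Means over marker lists of other cell types were lower, at 7.16 to 7.53 for epithelium (6 genes), 6.74 to 7.01 for blood and macrophages (6 genes) and 6.39 to 6.70 for endothelium (5 genes), but they were not level. The epithelial mean was 7.24 to 7.35 in control ASO arrays and 7.46 to 7.53 in control siRNA arrays, with Cdh1 (-0.40) and Krt18 (-0.28) called lower. The endothelial mean was 6.67 to 6.70 in Pint ASO arrays and 6.44 to 6.51 in control ASO arrays, with Kdr called higher (0.77) and Tek lower (-0.17), and Cdh1 was called lower there too (-0.68). Of 4 tested blood and macrophage markers, 1 was called lower and none higher in Pint ASO than in control ASO arrays (lowest difference -0.47). In p53 siRNA against control siRNA arrays 1 of the 4 was called lower and none higher (lowest difference -1.04). There 1 of 5 tested epithelial markers was also called lower and none higher (lowest difference -0.20), beside the 16.9% given above. The part of these lists in the differences below was not tested either. Lncpint, the Pint gene, had 8.54 ± 0.06 in Pint ASO arrays (SD, n = 3) and 10.32 ± 0.13 in control ASO arrays (SD, n = 2), a difference of -1.78 (limma, adjusted p = 2.94e-05). It was also higher in control ASO arrays than in control siRNA arrays (0.71, adjusted p = 0.0137), a call lost without control ASO replicate 1 (0.62, adjusted p = 0.106) or control siRNA replicate 3 (0.67, adjusted p = 0.0535), and lower in p53 siRNA arrays than in control siRNA arrays (-0.54, adjusted p = 0.00673). No probe set carries Trp53 as its only symbol, so the p53 knockdown was not checked here. In a bulk sample, fewer cells with an RNA and less of it per cell cannot be told apart.

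Most members gave a signal. A log2 value over 6 was taken as above the low range, and 52 of the 61 members exceeded it in every array. The 6 members under 6 in every array were Snord38a (4.73 to 5.33), Snord58b (4.09 to 5.34), Snord61 (4.60 to 5.39), Rnu5g (3.89 to 5.10), Rnu6 (3.02 to 3.39) and Rnu7 (4.68 to 5.77). They were not tested, and nothing is said of differences in them. Of the 55 members tested, Snord73a (5.88 to 6.30) and Snora41 (5.67 to 6.11) stayed near the limit, and Snord118 was under 6 in 1 control siRNA array.

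All 61 members were found by gene identifier in the RefSeq gene table, and 56 of them lie inside another gene there. These positions are those of the gene records, and where the probe sets themselves match was not checked. The other 5, namely Rnu3a, Snord118, Rnu12, Rnu6 and Rnu7, have no gene spanning them. Among the 11 host genes of members called in the first 2 comparisons below, 9 had a single promoter window in RefSeq (GRCm38.p6) that could be used. Host genes of small nucleolar RNAs and ribosomal protein genes are known for a tract of C and T at the start of transcription, and 6 windows are shown because these genes host the members that the results turn on. Each runs from 15 bases before the annotated start to 15 bases from it on, with the longest run of at least 6 C or T in capitals. They come from Ipo7 (chr7:110018300-110018329, plus strand), Rpl4 (chr9:64173372-64173401, plus strand), Rpl23 (chr11:97782425-97782454, minus strand), Rpl13a (chr7:45128731-45128760, minus strand), Rplp2 (chr7:141447636-141447665, plus strand) and Rpl27a (chr7:109519180-109519209, plus strand).
Ipo7, host of Snora23: ttggcgCTTCTCTTTCCTTTCgcgccggtt
Rpl4, host of Snord16a: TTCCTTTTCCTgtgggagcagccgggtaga
Rpl23, host of Snora21: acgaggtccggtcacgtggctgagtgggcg
Rpl13a, host of Snord33 and Snord35a: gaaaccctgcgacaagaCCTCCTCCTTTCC
Rplp2, host of Snora52: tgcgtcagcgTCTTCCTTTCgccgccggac
Rpl27a, host of Snora3: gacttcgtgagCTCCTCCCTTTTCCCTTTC

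A run of this kind was present in 7 of the 9 windows, and in 15 of 29 windows over all genes that alone span a tested member (51.7%). Of all 32851 promoter windows of this length, 29.2% held such a run when read in the direction of the gene, as printed here. On the opposite strand 32.4% held it. The windows of Rpl23 and of Rps3, the host of Snord15b, held none. A match is a description of letters and not of a working site.

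The comparison of the controls asks how far cells given an ASO and cells given an siRNA, neither aimed at Pint or p53, differed in these RNAs. The labels do not say whether the ASO arm and the siRNA arm were handled together. The kind of oligonucleotide and any other difference between these arms cannot be told apart. Of the 55 tested members, 6 were called (limma, Benjamini-Hochberg adjusted p under 0.05 over 26038 probe sets), against 4.02% of all probe sets tested. Snord118, Rnu3a, Rnu12, Snora21 and Snora23 were higher in control ASO arrays than in control siRNA arrays, where the share of all probe sets called higher was 2.29%. Snord16a was lower, where that share was 1.73%. The differences were very unequal, since 4 members differed by over 1 on the log2 scale and 50 by under 0.5.

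U8 (Snord118), which serves maturation of the large-subunit ribosomal RNAs in frog and human cells, had 10.37 and 10.29 in control ASO arrays, against 6.26, 6.27 and 5.91 in control siRNA arrays. Its values in the other groups were 9.43, 9.17 and 9.59 in Pint ASO arrays, and 6.43, 6.41 and 6.13 in p53 siRNA arrays. All 5 ASO arrays were high, all 6 siRNA arrays were close to 6, and no ASO array overlapped an siRNA array. The measured difference between the controls was 4.19 (SE 0.15, adjusted p = 7.25e-06) and ranked 1 of the 26038 probe sets from the highest. The siRNA values lie in or near the low range, so this difference is read as a lower bound and given no fold. With values under 6 set to 6 it was 4.16. Which genomic copy of U8 the probe set measures was not checked.

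U3 (Rnu3a), which takes part in the early cleavages that release the small-subunit ribosomal RNA, had 11.13 and 10.63 in control ASO arrays, against 8.60, 8.67 and 8.71 in control siRNA arrays. Pint ASO arrays had 10.33, 10.49 and 10.08, and p53 siRNA arrays had 8.38, 8.60 and 8.36. The ASO and siRNA arrays again did not overlap, and here the siRNA values stood well over 6. The control difference was 2.22 (SE 0.15, 95% interval 1.87 to 2.56, adjusted p = 0.000137), with rank 4 from the highest. Mouse has several near-identical U3 genes, so the probe set cannot assign this signal to 1 of them.

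U12 (Rnu12) had 9.14 and 9.22 in control ASO arrays, against 7.54, 7.60 and 7.71 in control siRNA arrays. In Pint ASO arrays it had 9.22, 9.30 and 9.31, and in p53 siRNA arrays 7.53, 7.46 and 7.54. These were tight groups on either side of a gap. The control difference was 1.56 (SE 0.06, 95% interval 1.42 to 1.71, adjusted p = 1.15e-05), with rank 10 from the highest.

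Among the box H/ACA members, Snora21 (probe set 10390505) had 10.80 and 10.85 in control ASO arrays, against 9.44, 9.36 and 9.26 in control siRNA arrays. It differed by 1.47 (SE 0.13, adjusted p = 0.000471) and ranked 15 from the highest. A second probe set with this symbol (10564520) had 8.22 and 7.57 in control ASO arrays, against 7.63, 7.25 and 7.60 in control siRNA arrays, which overlapped, and it was not called (0.40, SE 0.19, adjusted p = 0.309). The probe sets therefore differed in their call for the same symbol. Whether both measure the same genomic copy was not checked. Snora23, which lies in Ipo7, had 10.20 and 10.16 in control ASO arrays, against 9.44, 9.61 and 9.45 in control siRNA arrays, a difference of 0.68 (SE 0.11, adjusted p = 0.0125). Its call was lost without either control ASO array (adjusted p = 0.0875 without replicate 1 and 0.0543 without replicate 2).

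Snord16a, a box C/D RNA from Rpl4, was the only called member that was lower. It had 10.47 and 10.27 in control ASO arrays, against 10.90, 10.81 and 10.84 in control siRNA arrays, and differed by -0.48 (SE 0.07, adjusted p = 0.00665). With only these 2 groups in the fit, the calls of Snord16a (adjusted p = 0.101) and Snora23 (0.0556) were lost. The calls of Snord118, Rnu3a, Rnu12 and Snora21 were kept under every alternative run that gave them a value.

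**Figure D1:**
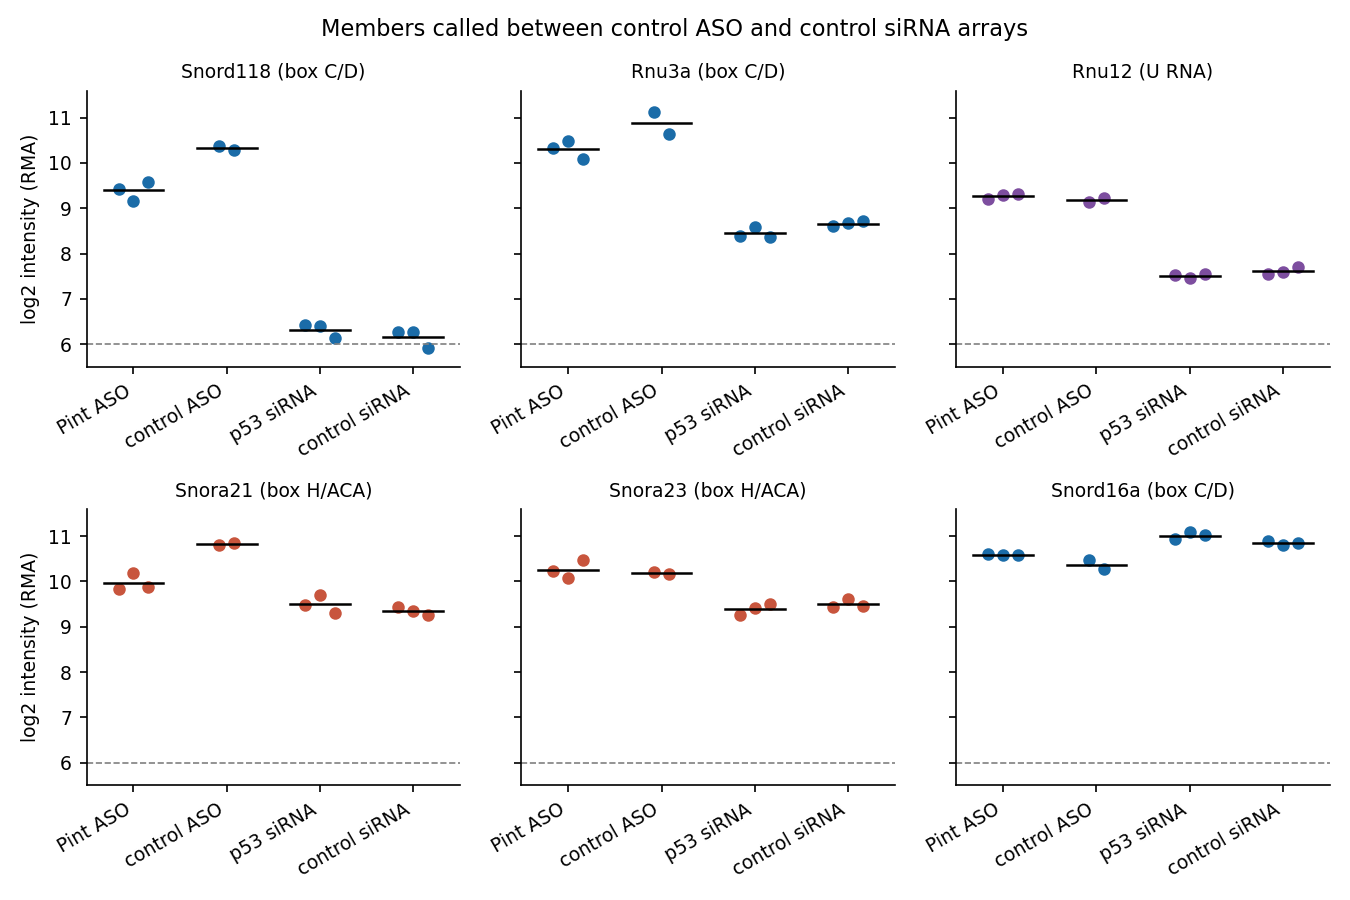
Log2 intensity (RMA) of the 6 members called between control ASO and control siRNA arrays, with 1 point per array, a line at each group mean and a dashed line at 6. In the panels of Snord118, Rnu3a and Rnu12 the 5 ASO arrays lie above the 6 siRNA arrays by more than the spread within any group.

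By class, 3 of 29 box C/D members were called (2 higher and 1 lower), with a median difference of -0.06 over the 29. Of 22 box H/ACA members 2 were called higher, with a median of 0.05. No Cajal body RNA of 3 was called. The median over all probe sets tested was -0.01. The box C/D median was -0.156 without control ASO replicate 1 and 0.0417 without control ASO replicate 2, and the box H/ACA median was 0.132 without control ASO replicate 2. All 3 tested members with no spanning gene (Snord118, Rnu3a and Rnu12) were called higher, with a median of 2.22. Of the 52 tested members inside another gene, 3 were called (5.77%), with a median of -0.03. This split was made after the values had been seen, and it is a description. It rests on the positions of the gene records, and where the probe sets themselves match was not checked.

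Other members that serve cleavage of the ribosomal RNA precursor, and that lie inside host genes, were not called. Snord14e, the U14 RNA within Hspa8, differed by -0.25 (SE 0.10, adjusted p = 0.226), and Snord22 of Snhg1 by -0.11 (SE 0.11, adjusted p = 0.702). Snora73a and Snora73b, the U17 pair within Snhg3, differed by -0.04 (SE 0.12, adjusted p = 0.911) and -0.05 (SE 0.12, adjusted p = 0.896). The upper bounds of their 95% intervals were -0.02 for Snord14e, 0.14 for Snord22, 0.22 for Snora73a and 0.21 for Snora73b.

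Pint ASO against p53 siRNA shares no array with the comparison of the controls and is a further ASO against siRNA comparison, although it holds both knockdowns as well. It also carries any other difference between the ASO and siRNA arms. It was added after values had been seen. Of the 55 members, 21 were called, 8 higher and 13 lower, which is 38.2% beside 39.0% of all probe sets tested (19.7% higher and 19.3% lower). The share of members called was therefore near the background. Snord118 was higher by 3.08 (SE 0.13, adjusted p = 2.19e-07), again rank 1 of 26038, Rnu3a by 1.85 (SE 0.14, adjusted p = 5.04e-06) and Rnu12 by 1.77 (SE 0.06, adjusted p = 4.79e-08). Snora23 was higher by 0.87 and Snora21 by 0.47, and Snord16a was lower (-0.42). All 6 members called between the controls were called here with the same sign, which is 100% of the first list and 28.6% of the second. How many of the 1046 probe sets called between the controls were also called here was not counted. Both comparisons also come from 1 fit that shares the estimate of the spread, so this overlap is only a description.

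Over the 55 members the log2 differences in these comparisons gave Pearson's r = 0.90 and Spearman's rho = 0.56, and over the 52 inside another gene r = 0.55 and rho = 0.48. These points share their arrays within each comparison and are no replicates. The larger r over all members rests on Snord118, Rnu3a and Rnu12.

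**Figure D2:**
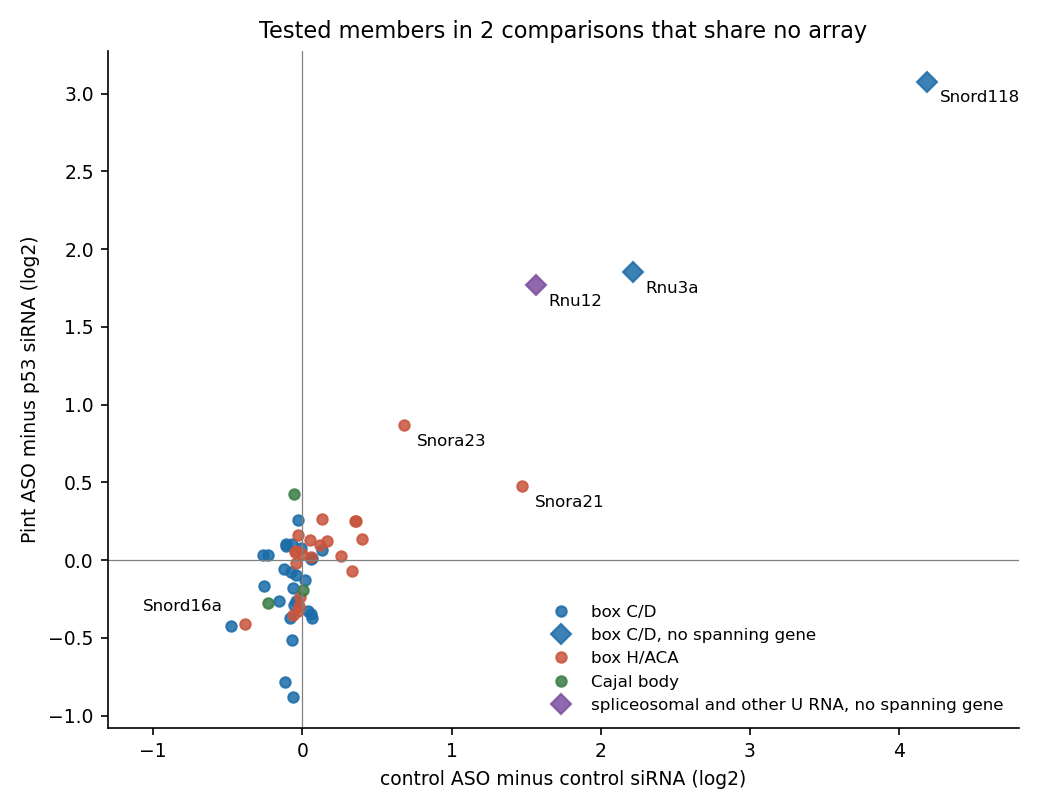
Log2 difference of the 55 tested members, control ASO minus control siRNA on the x axis and Pint ASO minus p53 siRNA on the y axis, coloured by class, with diamonds for members that no gene spans. The 3 diamonds lie at 1.56 to 4.19 on the x axis and 1.77 to 3.08 on the y axis, apart from the other members.

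A list of 9 small RNA genes outside the rule, drawn up after values had been seen, holds genes that are transcribed from promoters of their own. Vaultrc5, the vault RNA, was higher in control ASO arrays than in control siRNA arrays by 1.13 (SE 0.11, adjusted p = 0.000914) and Rny1, a Y RNA, by 1.13 (SE 0.20, adjusted p = 0.0167). The other 7 were not called. Among them Rn7sk differed by -0.02 (SE 0.05), Rpph1, the RNase P RNA, by -0.02 (SE 0.06) and Rmrp by -0.03 (SE 0.13). Small RNA genes with promoters of their own were thus found both among the called and among those not called. The rule also left out probe sets with several Rnu symbols. Between the controls the U3 set of Rnu3b1 to Rnu3b4 was higher by 1.73 (adjusted p = 1.87e-05), and a set of Rnu1b1, Rnu1b2 and Rnu1b6 (10512937) by 2.58 (adjusted p = 1.15e-05). Other sets of these Rnu1b symbols (10351515 and 10500356) were not called (0.44 and 0.24). Sets of Rnu2-10, which also carry Rdm1, were higher by 1.27, 1.33 and 1.09 (adjusted p = 0.00342, 0.00645 and 6.19e-05).

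Knockdown of Pint was compared with control ASO. These values share the control ASO arrays with the comparison of the controls, so the 2 sets of values are not independent. Of 55 members, 13 were called (23.6%), beside 19.1% of all probe sets. The count was 8 with no filter on low values, where 12.5% of all probe sets were called. It was 4 with only these 2 groups in the fit, where 7.94% were called. At B over 3 it was 1, beside 812 of all 26038 probe sets tested. Of the 13 calls, 2 were higher, where the share of all probe sets was 8.49%, and 11 were lower, where it was 10.7%. In the box C/D class 2 of 29 were called higher and 6 were called lower, with a median of -0.16. In the box H/ACA class 5 of 22 were called lower, with a median of -0.22, which was -0.0598 without control ASO replicate 1. Over all probe sets the median was 0.00. No Cajal body RNA was called, with 0.25 for Scarna13 (adjusted p = 0.361), -0.17 for Scarna17 (adjusted p = 0.0605) and 0.01 for Scarna8 (adjusted p = 0.963).

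Snord35a and Snord33 are box C/D RNAs from introns of Rpl13a, a group studied in mouse and hamster cells under metabolic stress. Snord35a had 9.14, 9.18 and 9.09 in Pint ASO arrays, against 9.99 and 9.79 in control ASO arrays, while p53 siRNA and control siRNA arrays lay between 9.83 and 10.09. Pint ASO was thus the group that stood apart. The difference was -0.75 (SE 0.08, 95% interval -0.94 to -0.56, adjusted p = 0.000360), and this was the 1 member with B over 3, the threshold of the study. Snord33 had 7.72, 7.80 and 7.56 in Pint ASO arrays, against 8.23 and 7.94 in control ASO arrays, a difference of -0.39 (SE 0.11, adjusted p = 0.0396). Its call was lost under 10 of 23 alternatives, among them leaving out control ASO replicate 1 (-0.25, adjusted p = 0.275), Pint ASO replicate 1 or 3, any p53 siRNA array or control siRNA replicate 3.

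Snord118 was lower, at -0.94 (SE 0.15, adjusted p = 0.00236) and Snora21 (probe set 10390505) at -0.86 (SE 0.13, adjusted p = 0.00140), from the array values given above. In both, Pint ASO arrays lay between control ASO and control siRNA arrays. Rnu3a had the same order of groups and was lower, at -0.58 (SE 0.15, adjusted p = 0.0272). The call did not hold when control ASO replicate 1 was left out (-0.33, adjusted p = 0.208), or Pint ASO replicate 1 or 3. Rnu12 did not have it, with a difference of 0.10 (SE 0.06, adjusted p = 0.366).

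The other called members of the box H/ACA class had smaller differences. Snora52, from the ribosomal protein gene Rplp2, had 12.73, 12.77 and 12.79 in Pint ASO arrays, against 12.97 and 13.00 in control ASO arrays, a difference of -0.22 (SE 0.05, adjusted p = 0.00960). Snora7a, from Rpl32, had 10.44, 10.43 and 10.43 in Pint ASO arrays, against 10.61 and 10.78 in control ASO arrays, a difference of -0.26 (SE 0.06, adjusted p = 0.0113). Both calls were lost without control ASO replicate 2 (adjusted p = 0.0592 for Snora52 and 0.0801 for Snora7a). Snora44 of Snhg12 was lower, at -0.32 (SE 0.09, adjusted p = 0.0345), and lost its call without any 1 Pint ASO array, control ASO replicate 2, p53 siRNA replicate 3 or control siRNA replicate 3 (adjusted p from 0.0504 to 0.191). For Snora3, within Rpl27a, 1 probe set (10556206) was called at -0.57 (SE 0.15, adjusted p = 0.0252) and the other (10570432) was not, at -0.26 (SE 0.11, adjusted p = 0.127). Whether both sets measure the same genomic copy was not checked. The call of probe set 10556206 was lost without Pint ASO replicate 3 or either control ASO array, with adjusted p between 0.0602 and 0.151.

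Of the remaining box C/D members, Snord49b of 2410006H16Rik was lower, at -0.35 (SE 0.11, adjusted p = 0.0477), and Snord15b of Rps3 at -0.32 (SE 0.10, adjusted p = 0.0440). These 2 calls lay close to the threshold and were lost under 14 and 15 of 23 alternatives. Snord49b lost it without Pint ASO replicate 1 or 3, control ASO replicate 1 or any 1 siRNA array, and Snord15b without Pint ASO replicate 1 or 2, either control ASO array or any 1 siRNA array. Snord55 was higher, with 9.24, 9.21 and 9.31 in Pint ASO arrays, against 8.83 and 8.96 in control ASO arrays (0.36, SE 0.08, adjusted p = 0.0124), and was not called without control ASO replicate 1 (adjusted p = 0.0960). Snord16a was higher by 0.23 (SE 0.07, adjusted p = 0.0494) and lost its call under 15 of 23 alternatives, among them leaving out any 1 Pint ASO or control siRNA array, control ASO replicate 2 or p53 siRNA replicate 2 or 3. Snord118, Snora21 and Snord35a kept theirs under every alternative run that gave them a value.

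**Figure D3:**
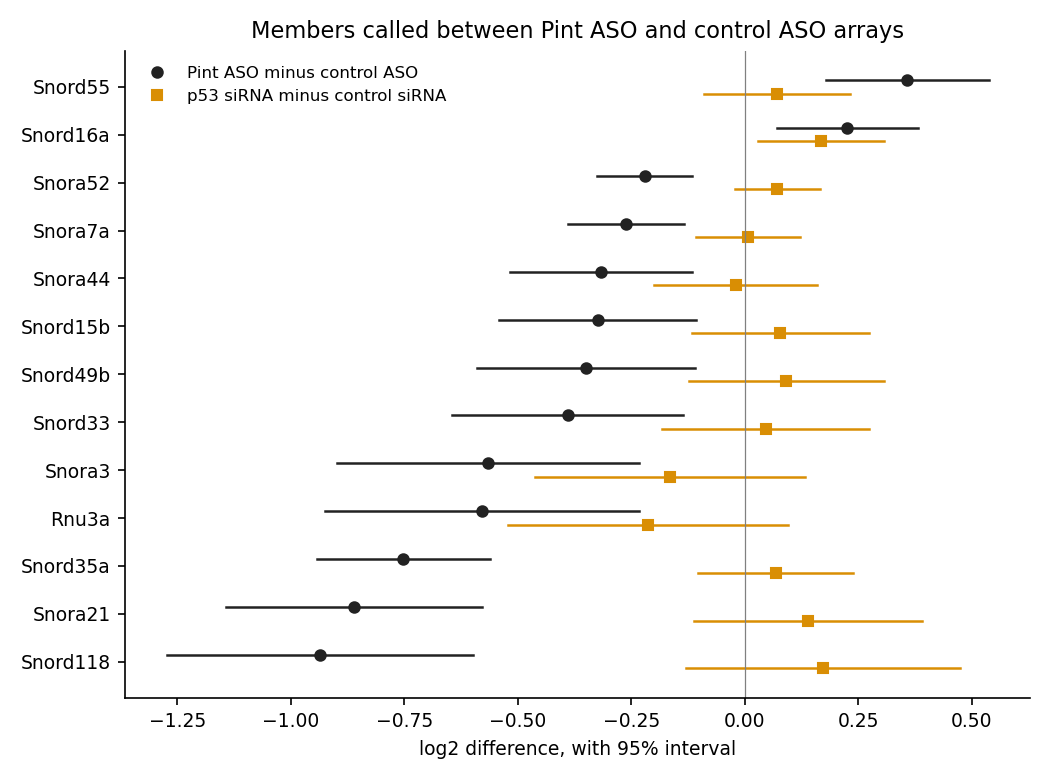
Log2 difference with 95% interval of the 13 members called between Pint ASO and control ASO arrays (circles), with the difference between p53 siRNA and control siRNA arrays for the same members (squares). The circles of 11 members lie below 0 and those of Snord55 and Snord16a above it, while all squares lie between -0.21 and 0.17.

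Knockdown of p53 was compared with control siRNA. None of the 55 members was called, beside 16.9% of all probe sets tested. At an unadjusted p under 0.05 limma gave 2 members, Snord16a (0.17, SE 0.06, adjusted p = 0.105) and Snord73a (-0.18, SE 0.08, adjusted p = 0.169), and at B over 3 none. The 95% intervals of all 55 lay within 1 of 0 on the log2 scale and those of 49 within 0.5 of 0, with bounds from -0.83 to 0.47. The medians were -0.05 in the box C/D class and -0.06 in the box H/ACA class. Leaving out 1 array moved them between -0.103 (without p53 siRNA replicate 2) and -0.0196 (without p53 siRNA replicate 1) in the box C/D class, and between -0.0947 and -0.0301 without the same arrays in the box H/ACA class. U8 and U3, which were higher in the ASO arrays, differed here by 0.17 (95% interval -0.13 to 0.47) and -0.21 (95% interval -0.52 to 0.10).

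The difference between both knockdown effects was tested as an interaction in the same fit. It was called for 5 members (9.09%), beside 18.5% of all probe sets (9.15% higher and 9.40% lower), and all 5 were lower. They were Snord118 (-1.11, SE 0.20, adjusted p = 0.00431), Snora21 (-0.9998, SE 0.17, adjusted p = 0.00283), Snord35a (-0.82, SE 0.11, adjusted p = 0.000953), Snora52 (-0.29, SE 0.06, adjusted p = 0.00982) and Snora7a (-0.27, SE 0.08, adjusted p = 0.0380). Snora7a lost this call when any 1 array other than control ASO replicate 1 or control siRNA replicate 2 was left out (adjusted p from 0.0550 to 0.135), and the other 4 kept theirs in each such fit. For the other 8 members called after Pint knockdown, a different response to p53 siRNA was not shown.

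Host genes were set beside their members where a single measured gene spans the member, which gave 28 tested members and 22 hosts. After Pint knockdown 18 of 28 members had the sign of their host (64.3%), and 5 members and 7 hosts were called, beside 19.1% of all probe sets. The only pair with both called was Snora21 and Rpl23, with Rpl23 at -0.18 (SE 0.05, adjusted p = 0.0305). Some hosts had several probe sets, such as Rpl23 with 2, Rpl27a with 9 and Rpl23a with 10. Only the set with the highest mean was used for each. For no host, also not for those with 1 set, was it checked that the set measures the gene copy that holds the member. Snord57 and its host Nop56, itself a core protein of box C/D particles, had opposite signs. Nop56 was higher by 0.54 (SE 0.06, adjusted p = 0.000217), and Snord57 had 11.87, 12.00 and 11.25 in Pint ASO arrays, against 12.29 and 12.27 in control ASO arrays (-0.57, SE 0.18, adjusted p = 0.0534). Across the 28 members Pearson's r was 0.19 and Spearman's rho 0.23, as a description over members that share arrays and, in part, hosts.

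Between control ASO and control siRNA arrays 13 of 28 members had the sign of their host, with r = 0.03 and rho = 0.13. Rpl23 differed by -0.12 (SE 0.05, adjusted p = 0.214) while Snora21 differed by 1.47, and Ipo7 by 0.31 (SE 0.09, adjusted p = 0.102) while Snora23 differed by 0.68. Rpl4 differed by -0.06 (SE 0.06, adjusted p = 0.689) while Snord16a differed by -0.48. For the 3 called members with a measured host, the probe set used for the host was thus not called.

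**Figure D4:**
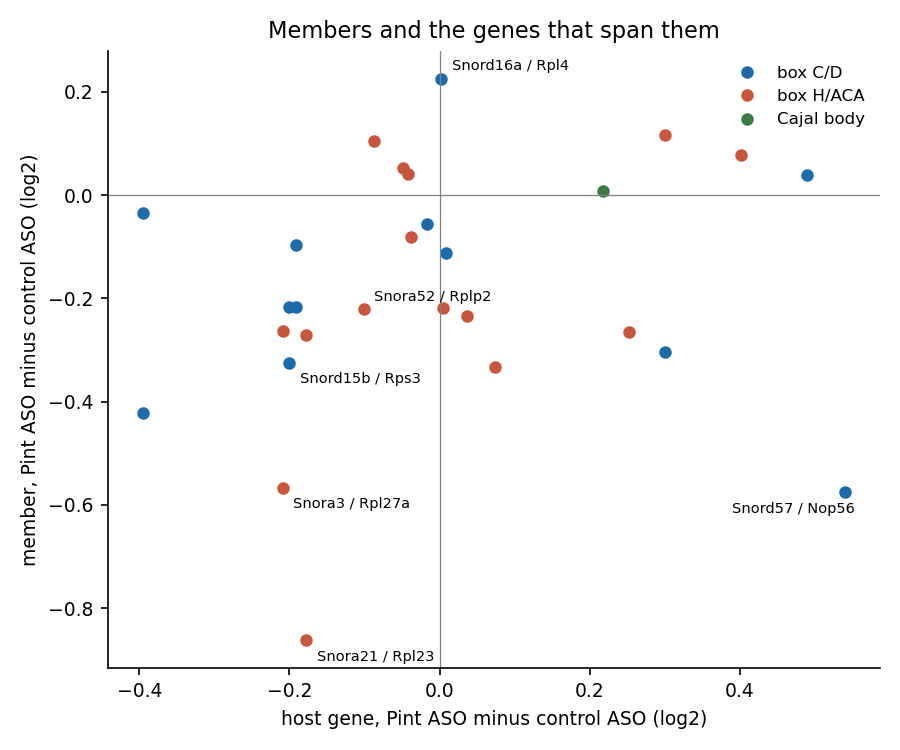
Log2 difference between Pint ASO and control ASO arrays for 28 tested members (y axis) and for the single measured gene that spans each (x axis), coloured by class. Snord57 lies at the lower right, below 0 beside a host at 0.54, and Snora21 lies lowest, at -0.86 beside a host at -0.18.

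The proteins that bind these RNAs were read from lists of related genes, beside 8.49% of all probe sets called higher and 10.7% called lower after Pint knockdown. After Pint knockdown 4 of 5 box C/D proteins were called higher, with a median of 0.46 over the 5. The 4 were the methyltransferase Fbl (0.40, SE 0.05, adjusted p = 0.000373), Nop56, Nop58 (0.46, SE 0.08, adjusted p = 0.00435) and Rrp9, the partner of U3 (0.57, SE 0.07, adjusted p = 0.000665). Of 4 box H/ACA proteins 2 were called higher, the pseudouridine synthase Dkc1 (0.43, SE 0.10, adjusted p = 0.0134) and Nhp2 (0.37, SE 0.06, adjusted p = 0.00198). The members themselves had medians below 0 in both classes, as given above. Of 9 tested assembly factors 3 were called higher, of 8 Cajal body proteins 4 and of 10 turnover genes 3, and none was called lower. Negative differences that were not called were seen for 1 assembly factor, 2 Cajal body proteins and 3 turnover genes. Of 22 non-coding host genes listed, 7 were measured, and Snhg5 (0.55), Snhg16 (0.77) and Snhg17 (0.79) were called higher while Snhg15 (-0.29) was called lower.

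After p53 knockdown Nop56 was higher by 0.25 (SE 0.05, adjusted p = 0.00727) and Dkc1 by 0.34 (SE 0.09, adjusted p = 0.0234), beside 16.9% of all probe sets called in either direction. Of 8 Cajal body proteins Wrap53, which carries RNAs to the Cajal body, was lower (-0.36, SE 0.04, adjusted p = 0.000257), while Nolc1 (0.21, SE 0.04, adjusted p = 0.00828) and Gemin5 (0.25, SE 0.06, adjusted p = 0.0216) were higher. Between the controls no box C/D protein of 5 and no box H/ACA protein of 4 was called. In that comparison the assembly factor Nufip1 was higher by 0.33 (SE 0.06, adjusted p = 0.0167), the non-coding host gene Snhg17 by 0.61 (SE 0.08, adjusted p = 0.00485), and the turnover genes Dis3 by 0.34 (SE 0.08, adjusted p = 0.0477) and Tent4b by 0.33 (SE 0.07, adjusted p = 0.0268).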

How the data were processed

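The deposited values are RMA log2 intensities per probe set, for which the authors corrected background, normalized across arrays and summarized probes (version not given in the sources used here), from 11 Affymetrix whole-transcript arrays, for which the main and the supplementary methods name different models. RNA was purified over columns that recover short RNA incompletely, and 300 ng of total RNA was labelled after random priming. The number of arrays, and not a read depth, sets the precision. Probe sets were named with the platform annotation (21640 with 1 symbol, 1321 with several, 11799 with none), and symbols were checked against a RefSeq mouse gene table, which changed none of the members.

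Probe sets that exceeded log2 6 in 2 or more arrays of any group (26038) were fitted with limma 3.58.1 in R 4.3.3, with all 4 groups in 1 linear model and empirical Bayes moderation. Calls had a Benjamini-Hochberg adjusted p under 0.05, and the number with B over 3, which the study used, is also given. The fit was tested on simulated data. A host was the single gene spanning a member with probe sets of its own symbol only, read from the one with the highest mean. The strand of members was not in the table and was not checked, and the build of the array annotation is not stated, so no coordinates of members are given.

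The members and gene lists were chosen with earlier results of these data known. Named members are the 10 highest and 10 lowest called in each comparison, the 5 with the highest mean in each class, those with 2 probe sets, Snord35a (in a gene table of the study), their hosts and called genes of the related lists. Snord14e, Snord22, Snord57, Snora41, Snora73a, Snora73b, Snord73a and the members under 6 were named after their values were seen, as were the comparison of Pint ASO with p53 siRNA and the list of 9 other small RNA genes. The probe sets with several Rnu symbols were also named after their values were seen. Alternatives covered the filter, scaling, moderation, the groups fitted, a replicate block and leaving out each array. Replicate numbers were not used as pairs. Deviations from group means correlated at -0.224, -0.149 and -0.0369 for same-numbered siRNA arrays, and for ASO arrays at -0.0553 and -0.356 by title number and at 0.356 and 0.315 by description number, which differ for the ASO arrays.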

Additional observations from a re-analysis of the deposited data

Results flagged for a closer look

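In 5 members the effect of Pint ASO and the effect of p53 siRNA differed in the interaction test (limma, adjusted p under 0.05 over 26038 probe sets), which is 9.09% of those tested beside 18.5% of all probe sets. All 5 differences were negative, where the share of all probe sets was 9.40%. Each difference is given as the Pint ASO effect minus the p53 siRNA effect on the log2 scale. It was -1.11 for Snord118 (adjusted p = 0.00431), -0.9998 for Snora21 (adjusted p = 0.00283) and -0.82 for Snord35a (adjusted p = 0.000953). It was -0.29 for Snora52 (adjusted p = 0.00982) and -0.27 for Snora7a (adjusted p = 0.0380), and the call of Snora7a was lost under 12 of 23 alternatives. In all 5 members every Pint ASO array lay below both control ASO arrays, which was also so in 19 of the 55 tested members. All 5 had been called lower in that comparison, so this adds no support. The share of all probe sets without overlap was not counted. The interaction also equals the difference between the 2 ASO against siRNA comparisons. For Snord118 and Snora21 the control ASO arrays were themselves higher than the control siRNA arrays, by 4.19 and 1.47, and the part of the control arrays in the interaction was not tested. For Snord35a, Snora52 and Snora7a control ASO and control siRNA arrays were not called different. No group holds the 4 arrays that a test for single outlying arrays needs.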

How the results depend on the processing

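No called difference of a named member changed sign under any alternative run. The share of all probe sets called moved as well. Between the controls it was 4.02% in the main fit and lay between 0.266% (only the groups compared) and 6.02% under the alternatives. Between Pint ASO and control ASO it was 19.1% in the main fit, 12.5% with no filter and 7.94% with only the groups compared. It was 13.6% and 15.2% with the replicate block by title and description number, and 15.3% without Pint ASO replicate 1. Between control ASO and control siRNA the count of 6 members stayed between 4 and 6 under the alternatives, and between 5 and 7 when 1 array was left out. Between Pint ASO and control ASO the count of 13 was 8 with no filter on low values, 4 with only the groups compared in the fit, 7 with the replicate block by title number (9 by description number) and 1 with B over 3. It lay between 7 (without Pint ASO replicate 1) and 11 when 1 array was left out, and was 8 without p53 siRNA replicate 3. Between p53 siRNA and control siRNA the count of 0 became 1 after quantile normalization was applied again (Snord16a, 0.18, adjusted p = 0.0485), and stayed at 0 when any 1 array was left out. The interaction count of 5 was 0 with B over 3 and between 4 and 6 when 1 array was left out. The count of 21 between Pint ASO and p53 siRNA was 6 with B over 3 and between 16 and 23 when 1 array was left out. The replicate block left the counts at 6 between the controls and at 0 for p53 siRNA, and gave 4 and 5 for the interaction and 20 for Pint ASO against p53 siRNA. With the block by title and by description number, the share of all probe sets called was 1.42% and 1.79% between the controls. It was 13.1% and 14.8% for p53 siRNA, 14.2% and 15.6% for the interaction and 35.8% and 37.5% for Pint ASO against p53 siRNA. At B over 3, 941 of all probe sets were called for the interaction and 3036 for Pint ASO against p53 siRNA. The cause of these changes was not tested.

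Class medians moved with single arrays. When 1 array was left out, the box C/D median lay between -0.156 (without control ASO replicate 1) and 0.0417 (without control ASO replicate 2) between the controls, between -0.222 and -0.115 for Pint ASO against control ASO, between -0.103 and -0.0196 for p53 siRNA against control siRNA and between -0.142 and -0.00408 for the interaction. The box H/ACA median lay between 0.0368 and 0.132 between the controls, between -0.222 and -0.0598 for Pint ASO against control ASO, between -0.0947 and -0.0301 for p53 siRNA against control siRNA and between -0.136 and 0.0362 for the interaction.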
